A study of Mus musculus with 48 samples.

Results

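The genes described here encode parts of the sperm tail and of the acrosome, together with a few other proteins of developing sperm cells. Of 39 listed genes, 29 were found by a single gene symbol in the platform annotation of the array, with 38 probe sets out of 22626. The 10 others (Spag16, Cabs1, Calr3, Tekt4, Spag6, Zpbp2, Izumo1, Spata3, Hook1 and Spata18) were not analysed here. Of the 29 genes, 23 had 1 probe set, 3 had 2 and 3 had 3, and all 29 lie on autosomes. Where a gene had several, the probe set with the highest mean over all samples stands for it, unless another is named.

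RNA of mouse organs was hybridised to 48 Affymetrix arrays in 8 groups: testis, ovary, male and female hypothalamus, male and female kidney, and male and female liver. Each group held 3 RNA samples with 2 arrays each, averaged here, so n = 3 per group. By the labels every RNA sample was a purchased preparation pooled from 10 animals, of tissue labelled healthy, with strain and age not stated in these sources. One label field describes hypothalamus RNA as total and that of the other organs as polyA-selected, while another gives total RNA throughout, so tissue and kind of RNA cannot be told apart in tests that involve hypothalamus. Whether the 3 samples within a group are different pools is not stated, so the spread behind the p-values could be technical only. Values are probe set intensities in arbitrary units on a common scale. Some counts and sums below set probe sets side by side, but their levels are not read as relative amounts of RNA. The deposited arrays had 2% trimmed means of 500.1 to 500.2 and medians of 163 to 276. The 2 arrays of a sample correlated at 0.966 to 0.990. Precision is limited by the 3 RNA samples of each group.

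In spermiogenesis the round spermatid builds a tail and an acrosome. The tail holds a microtubule axoneme, surrounded by outer dense fibres and, along the principal piece, by a fibrous sheath that anchors kinases and metabolic enzymes. The acrosome is a secretory vesicle over the nucleus whose enzymes and binding proteins act when sperm meet the egg coat. Many of these genes are transcribed in meiotic and post-meiotic germ cells only, and their mRNA may be stored before it is translated. Some axonemal genes are also used in cells with motile cilia, such as those of the oviduct and the ependyma.

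The promoters of 4 members are shown because their levels outside testis differed. Tekt1, Tekt2 and Meig1 also had higher means in ovary and hypothalamus than in kidney and liver, while Smcp did not. RFX factors, which drive genes of cilia, bind X-box sequences, so capitals mark the core GTTNCC on either strand. Each line gives 250 bases before and 50 from the start of the first transcript in the RefSeq table (GRCm38.p6), on the minus strand for all 4, at chr11:72361833-72362132, chr4:126325639-126325938, chr2:3422599-3422898 and chr3:92589024-92589323.
Tekt1: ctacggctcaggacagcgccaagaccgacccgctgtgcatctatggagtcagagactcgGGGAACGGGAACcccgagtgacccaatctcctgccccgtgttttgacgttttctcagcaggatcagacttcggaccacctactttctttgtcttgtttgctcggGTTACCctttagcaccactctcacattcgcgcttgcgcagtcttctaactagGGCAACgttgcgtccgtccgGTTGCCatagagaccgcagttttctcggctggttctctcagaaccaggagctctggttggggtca
Tekt2: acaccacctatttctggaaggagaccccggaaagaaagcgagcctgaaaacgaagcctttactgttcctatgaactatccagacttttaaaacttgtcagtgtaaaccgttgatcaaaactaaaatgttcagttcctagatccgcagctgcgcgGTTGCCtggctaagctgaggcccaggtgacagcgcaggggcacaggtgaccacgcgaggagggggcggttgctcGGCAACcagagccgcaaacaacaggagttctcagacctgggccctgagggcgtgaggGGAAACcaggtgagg
Meig1: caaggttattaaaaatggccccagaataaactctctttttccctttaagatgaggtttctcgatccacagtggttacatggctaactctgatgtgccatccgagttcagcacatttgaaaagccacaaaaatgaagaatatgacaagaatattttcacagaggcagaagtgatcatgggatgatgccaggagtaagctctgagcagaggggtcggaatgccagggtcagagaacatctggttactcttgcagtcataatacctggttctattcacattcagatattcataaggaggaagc
Smcp: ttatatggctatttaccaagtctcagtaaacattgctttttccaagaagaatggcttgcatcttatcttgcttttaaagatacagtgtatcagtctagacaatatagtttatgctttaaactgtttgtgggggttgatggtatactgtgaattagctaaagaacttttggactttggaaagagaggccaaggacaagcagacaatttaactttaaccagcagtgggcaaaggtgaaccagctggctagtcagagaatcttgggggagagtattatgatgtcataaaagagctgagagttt
The Tekt1 promoter held 5 matches and that of Tekt2 3, while the Meig1 start shown and the Smcp promoter held 0. Over all starts in the table, 1 of 3 Meig1 starts, 1 of 2 Tekt1 starts and 3 of 3 Tekt2 starts held the core. Odf2 also had higher means in ovary and hypothalamus than in kidney and liver, but held the core at no start. Pdha2 and Spesp1, dim in every sample outside testis, held it. Whether the core goes with the levels outside testis was not tested. Of the members, 24 matched the table by gene identifier, with 37 promoters. GTTNCC occurred in 24 of these 37 (64.9%), against 45.3% of all 32851 promoters of the table. By gene it occurred for 19 of 24 members, with 1.54 promoters per gene, against 48.8% of all genes with 1.22 per gene. The short CRE TGACG, bound by the spermatid activator CREM and its relatives, occurred in 11 of 37 (29.7%, against 20.8%), and overlaps the full site TGACGTCA, found in 0 of 37 (1.79% of all). CNGTTG, a core bound by MYB factors, occurred in 15 of 37 (40.5%, against 35% of all). Motifs were searched on both strands, and a match describes letters and not a bound site.

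All 29 genes were higher in testis than in ovary, in male liver, in male kidney and in male hypothalamus. Against ovary, 17.9% of all probe sets were called higher in testis (limma, adjusted p below 0.05) and 36.7% lower. The median log2 difference from ovary was 5.60 over the 29 genes, with a range of 2.89 to 7.53, against -0.18 over all probe sets. For 25 of the 29 the difference was at least 4 on the log2 scale, as it was for 1.4% of all probe sets. The group means of the 29 genes lay between 625 and 14264 in testis, against 3.82 to 241 in ovary. In whole organs, fewer cells of a type and less RNA per cell cannot be told apart. Log2 differences were taken after adding a pseudocount of 48.3 to the scaled intensity, so they understate the ratio for genes that are dim in one group. The order of the genes by difference depends on this too and was used only to choose which genes to name.

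**Figure D1:**
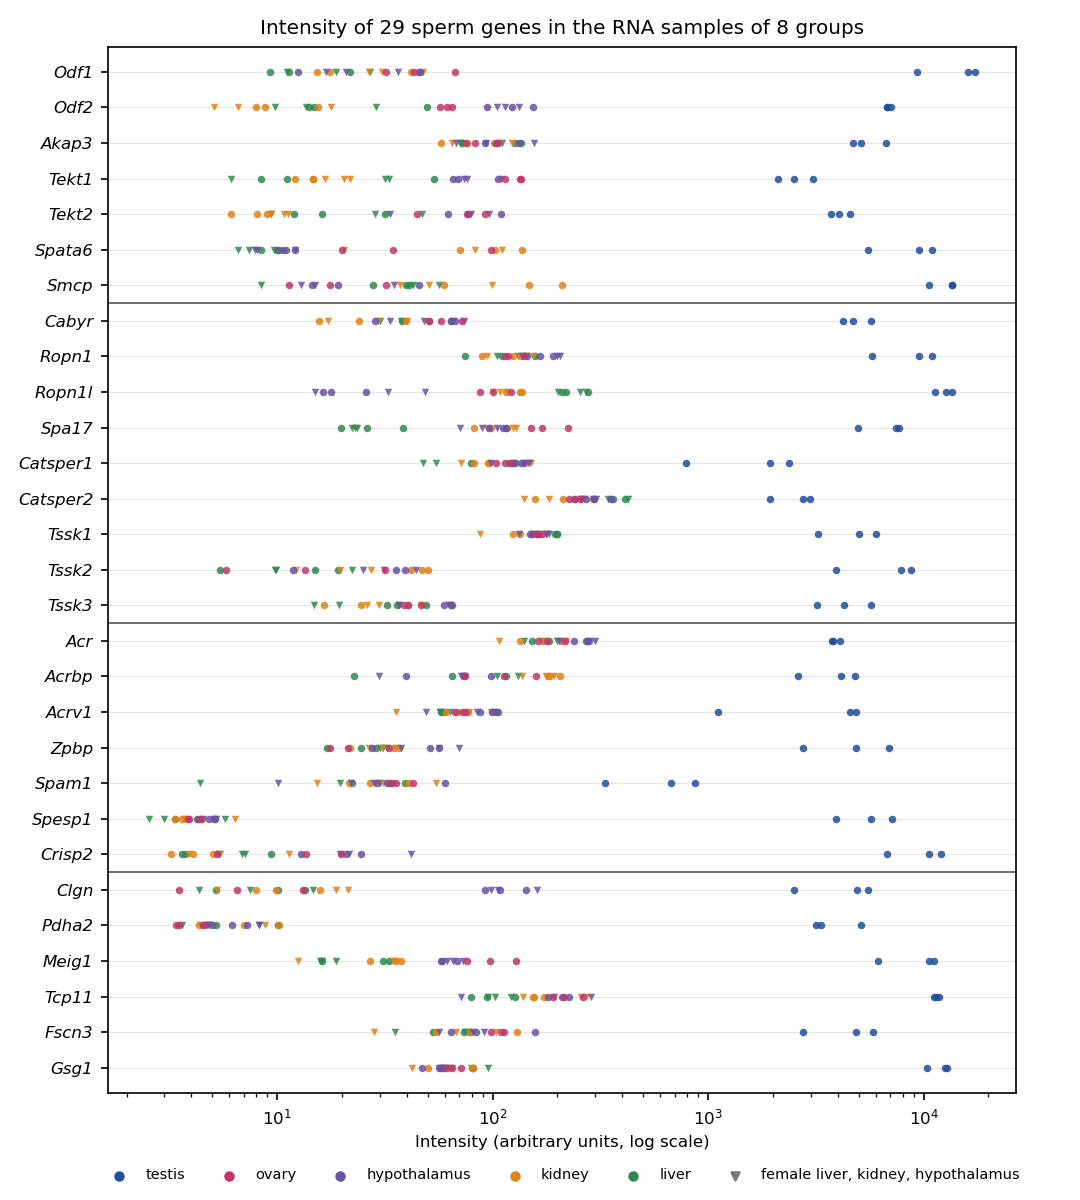
Intensity (log axis, arbitrary units) of the brightest probe set of each of 29 genes in each of 24 RNA samples. Colours mark the tissue, triangles the female samples of the 3 organs taken from both sexes, and lines separate tail scaffold, tail signalling, acrosome and other roles. The 3 testis samples lie to the right of the 21 others for all 29 genes.

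Among genes of the tail scaffold, Smcp, a cysteine-rich protein of the sperm mitochondrial capsule, had 13553, 13604 and 10638 in the 3 testis samples, against 11.3, 32.1 and 17.6 in ovary. The groups were far apart, with a difference of 7.53 ± 0.17 (log2, SE, limma adjusted p = 6.7e-08). Odf1, a main protein of the outer dense fibres, had 17363, 16104 and 9325 in testis, against 67.1, 32.1 and 43.1 in ovary, and differed by 7.25 ± 0.26 (adjusted p = 3.87e-07). Spata6, needed for the connecting piece between head and tail, had 10907, 9558 and 5537 in testis, against 98.5, 34.7 and 20 in ovary, and differed by 6.48 ± 0.34 (adjusted p = 2.01e-06). Testis 3 was the lowest of its group for all of these. Odf2, a second outer dense fibre protein that is also known from centrioles, had 7053, 6744 and 6776 in testis, against 64.7, 61.2 and 57 in ovary, a difference of 5.99 ± 0.12 (adjusted p = 5.74e-08). Akap3, which anchors protein kinase A in the fibrous sheath, differed by 5.37 ± 0.18 (adjusted p = 2.74e-07). The tektins Tekt1 and Tekt2, filament proteins bound to the axonemal microtubules, differed by 3.90 ± 0.17 (adjusted p = 8.15e-07) and 5.14 ± 0.19 (adjusted p = 3.83e-07). All 7 scaffold genes were called higher in testis in each of the 4 comparisons, with medians from 5.35 against male hypothalamus to 6.58 against male liver.

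Of the genes for tail signalling and channels, Tssk2, a serine kinase of spermatids, had 8791, 7874 and 3925 in testis, against 5.8, 31.8 and 13.5 in ovary, and differed by 6.67 ± 0.30 (adjusted p = 1.1e-06). Ropn1l, a fibrous sheath protein with a docking fold like that of protein kinase A, had 12722, 13625 and 11245 in testis, against 87.6, 121 and 100.5 in ovary, and differed by 6.38 ± 0.15 (adjusted p = 7.15e-08). In both genes no testis value came near an ovary value. The related Ropn1 differed by 5.64 on the log2 scale, Spa17 by 4.87 and Cabyr, a calcium-binding protein of the sheath, by 5.56. The kinases Tssk1 and Tssk3 differed by 4.48 and 5.60, the Tssk3 probe set being of a design that may read related transcripts. The pore subunits of the sperm calcium channel were higher in testis as well. Catsper1 had 1941, 2386 and 791 in testis, against 122, 104 and 114 in ovary, with a difference of 3.33 ± 0.35 (adjusted p = 8.21e-05). Catsper2 had 2751, 2963 and 1945 in testis, against 227, 242 and 255 in ovary, with a difference of 3.15 ± 0.18 (adjusted p = 3.01e-06). Catsper2 lay above the 40th percentile of the array in every sample of all 8 groups.

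Of the acrosome and fertilization genes, Crisp2, a cysteine-rich secretory protein of acrosome and tail, had 11999.6, 10554 and 6760.3 in testis, against 13.7, 19.8 and 5.25 in ovary, and differed by 7.29 ± 0.22 (adjusted p = 1.91e-07). Spesp1, a protein of the equatorial segment, had 5695, 7116 and 3909.97 in testis, against 4.4, 3.85 and 3.9 in ovary, and differed by 6.70 ± 0.21 (adjusted p = 2.21e-07). Outside testis the Spesp1 probe set stayed at 2.55 to 6.35 in all 21 samples. Zpbp, which binds the egg coat, differed by 5.99 on the log2 scale, Acrbp, the chaperone of proacrosin, by 4.57 and Acr, the acrosomal protease acrosin itself, by 4.10. Acr read 107 to 299 outside testis. Spam1, a hyaluronidase of the sperm surface, had 674, 870.3 and 332 in testis, against 33.3, 35.6 and 42.5 in ovary, and differed by 2.89 ± 0.30 (adjusted p = 6.94e-05). Acrv1, an acrosomal vesicle protein, had 4579, 4875 and 1117 in testis, against 74.6, 72.1 and 67.2 in ovary. Its difference was 4.65 ± 0.49 (adjusted p = 7.93e-05) with all samples and 5.33 (adjusted p = 9.98e-08) without testis 3, the only member whose ratio to ovary moved by more than 1.5 times when that sample was left out.

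Among the other members, Gsg1, a germ cell protein of the endoplasmic reticulum, had 12911, 12628 and 10425 in testis, against 65.1, 71.7 and 61.2 in ovary, and differed by 6.72 ± 0.14 (adjusted p = 5.74e-08). Clgn, the chaperone calmegin that folds sperm surface proteins, had 4898, 5534 and 2497 in testis, against 6.5, 3.5 and 13.3 in ovary, and differed by 6.21 ± 0.28 (adjusted p = 1.08e-06). Pdha2, the testis form of a subunit of pyruvate dehydrogenase, had 3348, 3162 and 5148 in testis, against 3.5, 4.55 and 3.4 in ovary, and differed by 6.20 ± 0.20 (adjusted p = 2.21e-07). Pdha2 is an autosomal copy of an X-linked gene, and its probe set read 3.4 to 10.2 in the 21 samples outside testis. Meig1, needed for the sperm manchette, differed by 5.94 on the log2 scale, Tcp11 by 5.42 and Fscn3, a fascin of the testis, by 4.91.

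The 3 other male organs gave the same count of calls, and these comparisons share the testis samples. Against male liver all 29 genes were called higher in testis (24.3% of all probe sets), with a median of 5.95 and a range of 2.75 to 7.79. Against male kidney all 29 were called (22.2% of all), with a median of 5.87, and against male hypothalamus all 29 (21.3% of all), with a median of 5.35. The lowest testis sample lay above the highest of all 21 other samples for 29 of 29 genes and for 37 of 38 probe sets, as it did for 12.4% of all probe sets. All 29 genes exceeded the 40th percentile of the array in all 3 testis samples. In the other groups 2 to 4 of 29 did, although 53.9% to 56.7% of all probe sets did so in a group. Those few were Acr, Catsper2 and Tcp11 in ovary and male hypothalamus, Acr and Catsper2 in female hypothalamus, Acrbp, Catsper2 and Tcp11 in both kidney groups with Acr added in male kidney, and Acr, Catsper2, Ropn1l and Tssk1 in both liver groups.

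**Figure D2:**
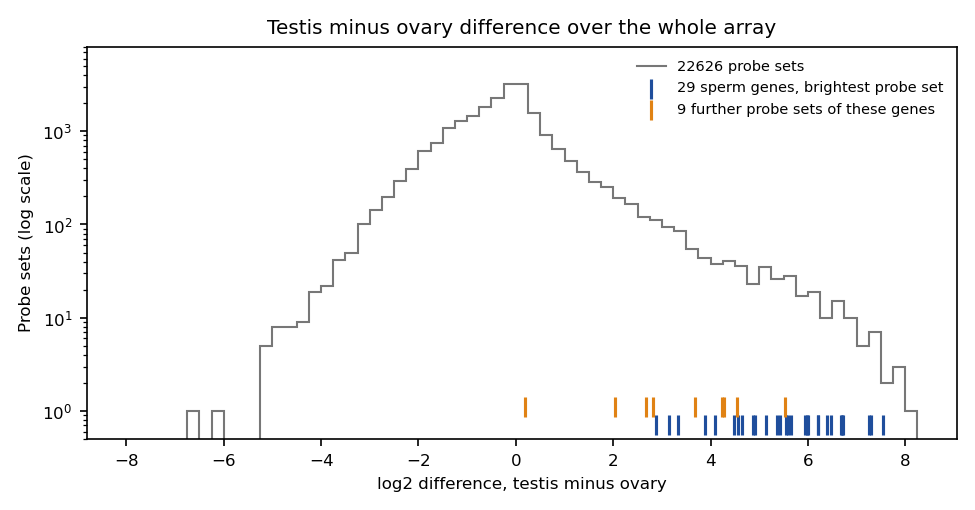
Number of probe sets (log axis) by log2 difference, testis minus ovary, over all 22626 probe sets, with the 29 brightest member probe sets as blue marks and their 9 further probe sets as orange marks. The blue marks lie between 2.89 and 7.53, in the upper tail of the distribution, and 1 orange mark, of Odf2, lies near 0 at 0.18.

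Centring arrays on their median gave a median difference of all probe sets between testis and ovary of 0.07 in place of -0.18, and a share of calls that were higher in testis of 52.2% in place of 32.8%. Against male hypothalamus these were 0.07 in place of -0.22 and 53.5% in place of 35.2%. The 29 calls in each of the 4 testis comparisons remained under every alternative setting and without any 1 RNA sample.

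Probe sets of a gene did not always give the same pattern. Odf2 probe sets 1426040_a_at and 1435216_a_at were both higher in testis, the second with 2453, 2846 and 2503 in testis, against 59.6, 96.5 and 46.8 in ovary. Probe set 1454735_at of the same gene had 600.1, 819 and 476 in testis, against 450.3, 594 and 594 in ovary. These groups overlapped, and the difference of 0.18 ± 0.21 (adjusted p = 0.521) was not called, nor was that of -0.11 ± 0.19 (adjusted p = 0.652) from male hypothalamus. The same probe set was higher in testis than in male liver, by 1.66 ± 0.21 (adjusted p = 0.000246), and than in male kidney, by 1.38 ± 0.23 (adjusted p = 0.00129). Which transcripts each probe set reads was not analysed here. All 3 Spata6 probe sets were called higher in testis than in ovary, at 6.48, 2.67 and 2.03 on the log2 scale. Outside testis, 1418651_at read 121 to 350.4 and 1418650_at 6.55 to 136. The second probe sets of Acrbp, Clgn and Spesp1 and the further 2 of Cabyr were called higher in testis in all 4 comparisons too.

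**Figure D3:**
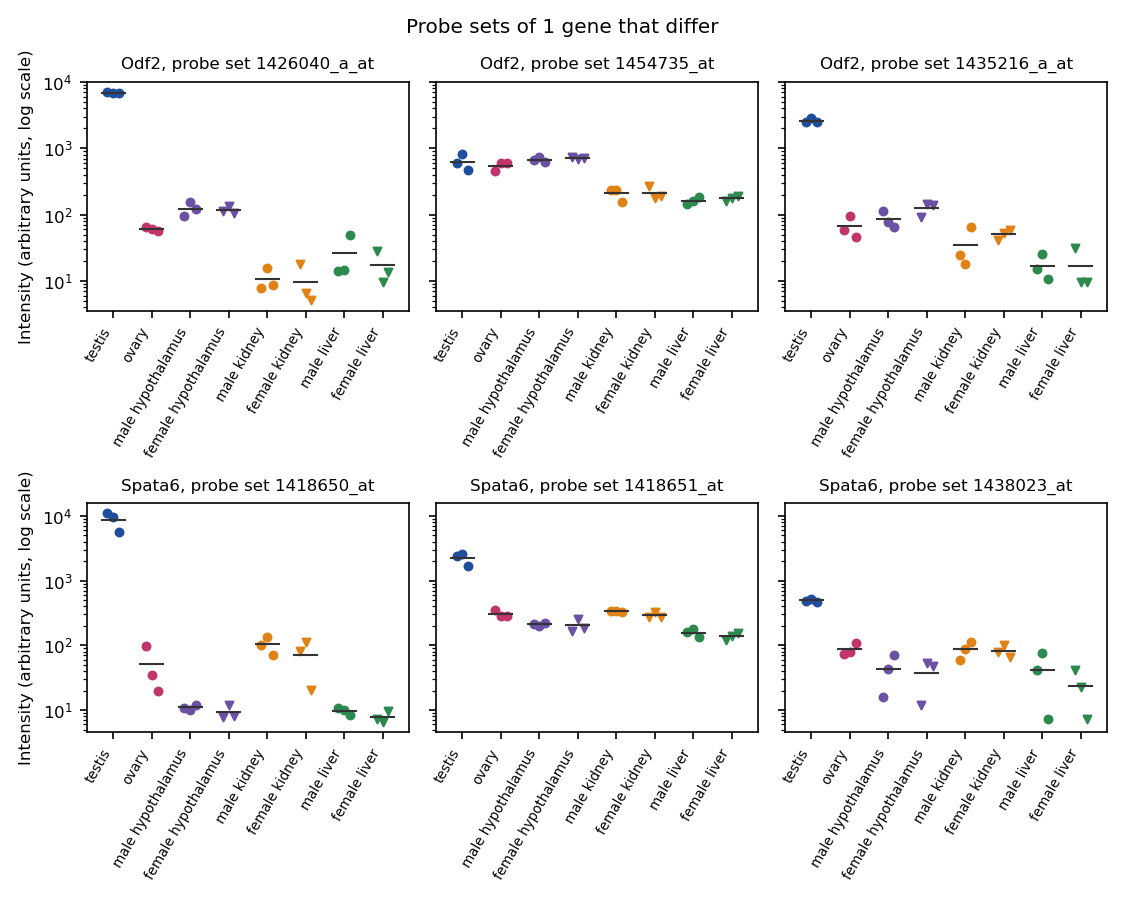
Intensity (log axis, shared within a row) of the 3 probe sets of Odf2 and of Spata6 in the 8 groups, with 3 RNA samples as points and the group mean as a line. The middle Odf2 probe set, 1454735_at, has overlapping values in testis and ovary, while the outer ones stand far higher in testis.

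Other genes of the same structures were listed from general knowledge. Some of these also stand in a cell marker list used below, as Ldhc among spermatocyte and Gapdhs among spermatid markers. Of 21 other sperm tail genes 20 were called higher in testis than in ovary and 0 lower, with a median of 5.0. Ldhc, the sperm form of lactate dehydrogenase, had 21018 ± 1646 (SD, n = 3) in testis, against 42.3 ± 9.65 in ovary, and Gk2, a testis glycerol kinase, had 6786 ± 261, against 4.05 ± 0.826. Akap4, the main protein of the fibrous sheath, differed by 6.59 ± 0.16 (adjusted p = 7.39e-08) and Tssk6, another spermatid kinase, by 6.62 ± 0.15 (adjusted p = 7.15e-08). The tail gene not called was Spef1, at 505 ± 150.1 in testis and 379 ± 53.5 in ovary (adjusted p = 0.181). Of 24 other acrosome and fertilization genes 22 were called higher and 0 lower, with a median of 4.35. Dkkl1, an acrosomal glycoprotein, had 6341 ± 850.4 in testis, against 12.9 ± 1.84 in ovary, and Adam2, a sperm surface protein of the fertilin complex, had 5231 ± 263, against 55.5 ± 5.7. Adam5 and Tex101, further surface proteins of germ cells, differed by 5.88 and 5.88 on the log2 scale. Gopc and Adam1a were not called (adjusted p = 0.366 and 0.847).

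Most markers of spermatids and all of spermatocytes were higher in testis with the members, while most markers of granulosa cells, oocytes and Leydig cells were lower than in ovary. Summed over 10 spermatid markers, intensity was 85542 to 115616 in testis, against 765 to 1127 in all other samples. Of these markers 9 of 10 were called higher in testis than in ovary and 1 lower. The 1 lower was Crem, by -0.56 on the log2 scale, with 201, 176 and 171 in the testis samples. Tnp2, a transition protein that packs spermatid DNA, had 16007 ± 2119 in testis, against 4.32 ± 0.71 in ovary. All 11 spermatocyte markers were called higher, among them Spo11, which makes the breaks of meiotic recombination, with 1498 ± 292 in testis, against 84.6 ± 9.76 in ovary. Of 6 spermatogonial markers 3 were called higher and 1 lower, of 9 Sertoli cell markers 5 higher and 1 lower, and of 5 Leydig cell markers 1 higher and 3 lower. Against male liver, male kidney and male hypothalamus, all 5 Leydig cell markers were called higher in testis. All 5 granulosa cell markers and 8 of 9 oocyte markers were lower in testis, as in Zp3, a protein of the egg coat, with 97.6 ± 15.9 in testis, against 1029 ± 239.7 in ovary. The 5 epididymis markers summed to 218 to 462 in testis, against 197 to 378 in the other samples, with 1 called higher than in ovary. How far the make-up of the organs set the differences of the members was not tested.

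Within testis, sample 3 stood apart from samples 1 and 2. Both of its arrays lay below all 4 arrays of samples 1 and 2 for 21 of 29 members and above them for 3, against 23.8% and 19.9% of all probe sets. For testis 1 these counts were 0 below and 10 above, against 9.43% and 18.7% of all probe sets. For testis 2 they were 2 and 8, against 12.6% and 12.3%. The median member difference of testis 3 from the mean of the others was -0.70 on the log2 scale, against -0.07 over all probe sets. By role, 6 of 7 acrosome genes and 8 of 9 signalling and channel genes lay below, against 3 of 7 scaffold genes. Acrv1 had the greatest gap, with -2.04, followed by Catsper1 with -1.39, Spam1 with -1.12, Tssk2 with -1.08 and Zpbp with -1.06. The exceptions that lay above were Pdha2 with 0.66, Tekt1 with 0.41 and Cabyr with 0.35. Of the further Cabyr probe sets, 1424558_a_at lay above as well (0.85) and 1430007_a_at below (-0.51). This is 1 RNA sample, so no test was made.

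**Figure D4:**
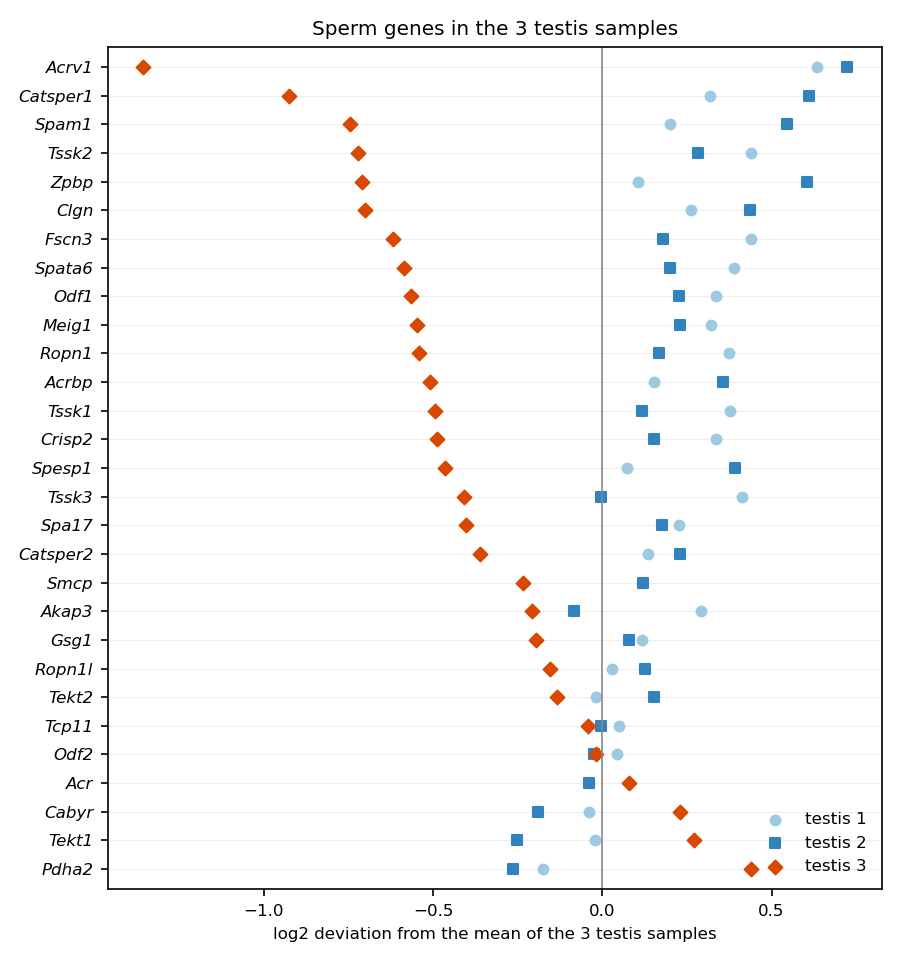
Deviation of each testis sample from the mean of the 3 (log2, horizontal axis) for the 29 genes, ordered by the deviation of testis 3. Testis 3 lies to the left for most genes, farthest for Acrv1, and to the right for Pdha2, Tekt1, Cabyr and, slightly, Acr.

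Marker lists moved with this sample as well. Of 10 spermatid markers 9 lay below in testis 3, with a median of -0.41, and of 24 other acrosome genes 16, with a median of -0.59, among them Zp3r, an egg coat binding protein, with -2.08. The 21 other tail genes were mixed, with 11 below and 5 above. Of 11 spermatocyte markers 6 lay below and 3 above, with Sycp1, a synaptonemal complex protein, at -1.99 and Ccna1, the cyclin of male meiosis, at 0.84. All 5 Leydig cell markers lay above, with a median of 0.94, and their summed intensity was 8561 to 15968 over the 3 testis samples. Of 9 Sertoli cell markers 4 lay above and 1 below, with a median of 0.33. Their part in the lower member values of testis 3 was not tested. Without testis 3, all 29 genes were called higher in each of the 4 testis comparisons, and the median difference from ovary was 5.80.

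In ovary, a few tail genes read above female liver and kidney, far below testis. Of the 29 genes 7 were called higher in ovary than in female liver (37.1% of all probe sets) and 1 lower (15.2% of all). Against female kidney 6 were called higher (27.9% of all) and 0 lower (13% of all), with 5 genes in common. The shares of all probe sets called higher are of similar size, so the counts do not set the members apart. Tekt1 had 134, 135 and 114 in ovary, against 31.8, 33 and 6.1 in female liver and 20.5, 16.7 and 21.8 in female kidney. No values overlapped, and the differences were 1.31 ± 0.17 (adjusted p = 0.000315) from liver and 1.36 ± 0.12 (adjusted p = 6.33e-05) from kidney. Meig1 had 129, 97 and 75.9 in ovary, against 16.1, 15.7 and 18.7 in female liver and 12.6, 34.6 and 35.3 in female kidney, and differed by 1.19 ± 0.14 (adjusted p = 0.000228) and 0.99 ± 0.18 (adjusted p = 0.00347). Odf2 had 64.7, 61.2 and 57 in ovary, against 28.8, 9.8 and 13.5 in female liver and 17.8, 6.6 and 5.1 in female kidney, again without overlap. It differed by 0.74 and 0.91 on the log2 scale (adjusted p = 0.00198 and 0.000822). The Odf2 probe set 1435216_a_at had 59.6, 96.5 and 46.8 in ovary, which overlapped the 41.9, 52.1 and 57.8 of female kidney. Tekt2 had 44.6, 92.7 and 76.4 in ovary, against 28.6, 47.2 and 9.35 in female liver and 10.8, 9.4 and 11.2 in female kidney. The lowest Tekt2 value of ovary lay below the highest of liver, and its call against liver was lost with median centring (adjusted p = 0.106) and without any 1 of 4 samples (ovary 2 or 3, female liver 1 or 3). Spa17 had 224, 169 and 151 in ovary, against 22.1, 23 and 23.5 in female liver and 129, 94.5 and 125 in female kidney. Its difference of 1.70 from liver was kept under median centring, and that of 0.48 from kidney was not (adjusted p = 0.285). Spata6 (adjusted p = 0.0407) and Tcp11 (0.00156) were higher than in liver alone, and Cabyr (0.0201) than in kidney alone, while Ropn1l was lower than in liver by -0.94 ± 0.14 (adjusted p = 0.00085). The call of Spata6 was lost without any 1 of ovary 2 or female liver 1, 2 or 3, and that of Cabyr with median centring (adjusted p = 0.0831). The further Cabyr probe sets, 1424558_a_at and 1430007_a_at, overlapped between ovary and female kidney.

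Markers of ciliated cells were also higher in ovary than in these 2 organs, though not than in testis. All 8 motile cilia markers were called higher than in female liver, and 7 were higher and 1 lower than in female kidney. Their summed intensity was 3088 to 3647 in ovary, against 826 to 1181 in kidney and 319 to 564 in liver. In testis they summed to 25026 to 27911, and 5 of 8 were called higher there than in ovary and 2 lower. The list is therefore not particular to organs with ciliated cells. Foxj1, the transcription factor of motile cilia, had 1148 ± 199 in ovary, against 117 ± 30.6 in female kidney and 81.1 ± 33.2 in female liver. Rsph1, a radial spoke protein, had 308 ± 62.2 in ovary, against 13.8 ± 5.42 and 8.52 ± 3.57 in these organs. All 9 markers of oviduct and surface epithelium were higher than in female liver, as in Ovgp1, the oviduct glycoprotein, with 8673 ± 1235 in ovary, against 136 ± 27.9 in female liver. Against female kidney 4 of these 9 were higher and 5 lower. The part of such cells in the values of Tekt1, Tekt2, Meig1, Odf2 and Spa17 was not tested. With median centring, the median difference of all probe sets was -0.06 in place of 0.19 against liver and -0.04 in place of 0.14 against kidney, and the share of calls that were higher in ovary was 46.1% in place of 70.9% and 45.7% in place of 68.3%. The calls of Tekt1, Meig1 and Odf2 remained in both comparisons under each alternative that tested them.

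In hypothalamus, averaged over the sexes with n = 6 per tissue, 14 genes were called higher than in liver (46.6% of all probe sets) and 1 lower (24.6% of all). Against kidney 12 were called higher (43.3% of all) and 4 lower (24.6% of all). With median centring these became 7 and 6 against liver, and 7 were higher against kidney. Samples of the same number deviated together between the sexes of each tissue, so the 6 of a tissue are not fully independent. The main fit took them as independent, here and for kidney against liver. The lowest, median and highest values of Clgn were 91.8, 107 and 161 in hypothalamus, against 4.35, 8.77 and 14.6 in liver and 5.25, 12.8 and 21.3 in kidney. The tissues did not overlap, and the differences were 1.52 ± 0.11 (adjusted p = 4.53e-08) and 1.43 ± 0.11 (adjusted p = 1.76e-07). The Clgn probe set is of a design that may cross-hybridise, and the second probe set was called higher too, by 0.59 ± 0.14 (adjusted p = 0.00238) and 0.57 ± 0.14 (adjusted p = 0.00333). Odf2 had 94.7, 119 and 153 in hypothalamus, against 9.8, 14.5 and 49.7 in liver and 5.1, 8.35 and 17.8 in kidney, with differences of 1.29 and 1.52 on the log2 scale. All 3 Odf2 probe sets were called higher in both comparisons. Tekt1 had 65.5, 75 and 109.9 in hypothalamus, against 6.1, 21.5 and 53.7 in liver and 12, 15.7 and 21.8 in kidney, and differed by 0.89 ± 0.16 (adjusted p = 0.000308) and 1.01 ± 0.10 (adjusted p = 1.1e-06). Tekt2 had 33.5, 78.2 and 109 in hypothalamus, against 9.35, 22.3 and 47.2 in liver and 6.1, 9.2 and 11.2 in kidney, with its lowest value inside the range of liver. Meig1 had 57.5, 63.3 and 72.9 in hypothalamus, against 15.7, 17.4 and 32.9 in liver and 12.6, 35 and 37.7 in kidney, with no overlap. Crisp2 was dim throughout, at 12.9, 21.3 and 41.8 in hypothalamus, against 3.6, 6.12 and 9.35 in liver and 3.2, 4.55 and 11.4 in kidney. These 6 calls remained in both comparisons under each alternative that tested them. Tssk3, Ropn1, Acr and Zpbp were called against both tissues as well, by 0.31 to 0.54. Each lost a call when arrays were scaled by quantiles, and Ropn1, Acr and Zpbp in both comparisons with median centring.

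In the other direction, Ropn1l had 15, 21.8 and 48.5 in hypothalamus, against 201, 237 and 278 in liver and 100.5, 116 and 137 in kidney. The tissues did not overlap, and the difference was -1.96 ± 0.11 (adjusted p = 5.69e-09) from liver and -1.19 ± 0.10 (adjusted p = 3.11e-07) from kidney. Smcp, Spata6 and Acrbp were lower in hypothalamus than in kidney, by -0.94, -1.12 and -1.09 on the log2 scale. For Acrbp the second probe set was called the other way, at 0.36 (adjusted p = 0.0101). Of 8 motile cilia markers 7 were called higher in hypothalamus than in liver, and 6 higher and 1 lower than in kidney. Their summed intensity was 1309.6 to 1517 in hypothalamus, against 826 to 1181 in kidney and 319 to 564 in liver. Of 7 ependyma and choroid plexus markers 2 were higher and 4 lower than in liver, and 2 higher and 3 lower than in kidney. Several of these, such as Ttr, the thyroxine carrier that liver also makes, are not confined to brain. The part of ciliated cells in the member values was not tested. The share of all calls that were higher in hypothalamus was 65.5% against liver and 63.8% against kidney, and 45.1% and 44.8% with median centring, which gave median differences of -0.07 in place of 0.20 and -0.05 in place of 0.17.

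**Figure D5:**
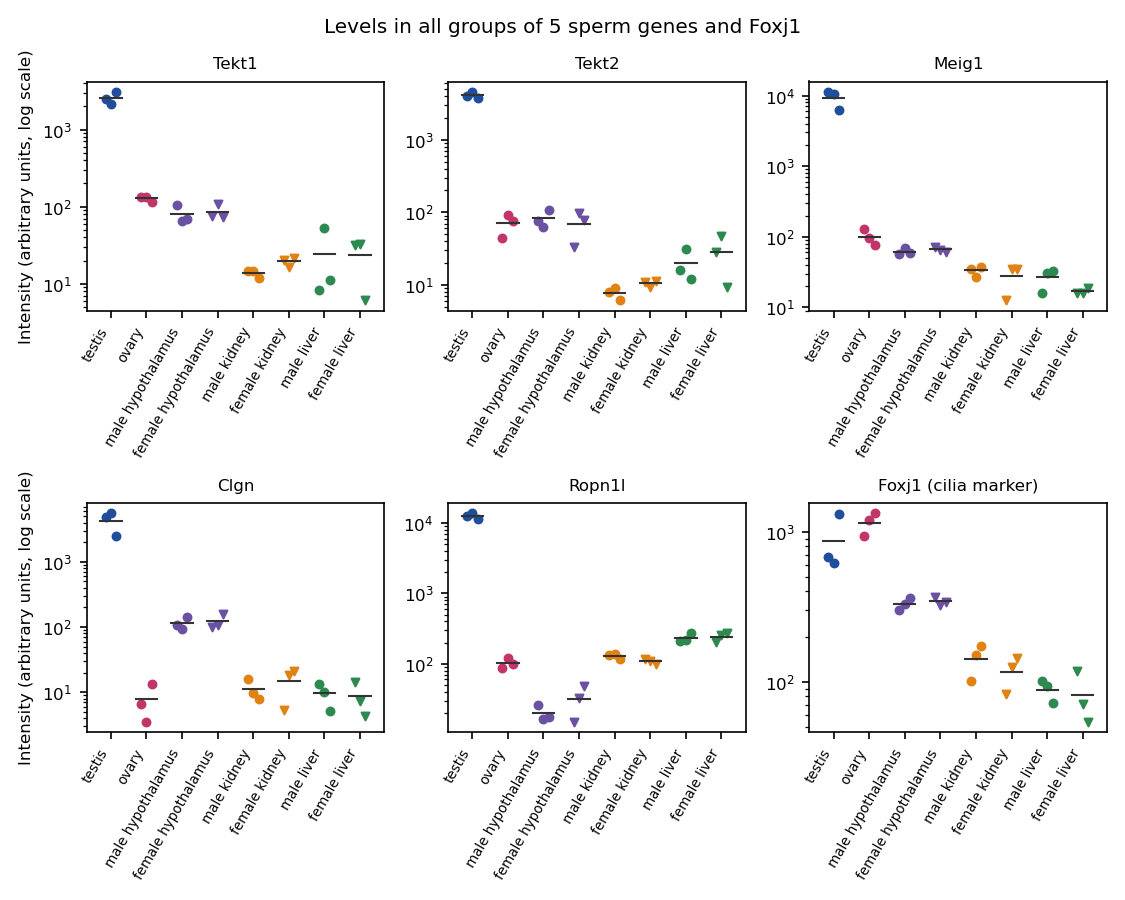
Intensity (log axes that differ between panels) of Tekt1, Tekt2, Meig1, Clgn, Ropn1l and the cilia marker Foxj1 in the 8 groups, with 3 RNA samples as points and the group mean as a line. Testis is far above the other groups for the 5 sperm genes, ovary and hypothalamus come next for Tekt1, Tekt2 and Meig1, hypothalamus for Clgn and liver for Ropn1l, while the Foxj1 values of testis and ovary overlap.

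Between kidney and liver, 6 genes were called higher in kidney (25.6% of all probe sets) and 3 lower (18.1% of all). Spata6 had 20.3, 92.9 and 136 in kidney (lowest, median and highest of 6), against 6.55, 9.05 and 10.6 in liver, with a difference of 1.16 ± 0.19 (adjusted p = 0.000282). All 3 Spata6 probe sets were called higher in kidney. Spa17 had 82.1, 107 and 129 in kidney, against 19.8, 23.3 and 38.3 in liver, with a difference of 1.09 ± 0.09 (adjusted p = 1.58e-06). Neither gene overlapped between the tissues. Acrbp had 137, 182 and 207 in kidney, against 22.7, 89.5 and 132 in liver, with a difference of 0.85 ± 0.17 (adjusted p = 0.00163) by its brighter probe set. The other Acrbp probe set did not show this, with 12.95, 20.1 and 41.8 in kidney, against 21.4, 28.9 and 41.4 in liver. Smcp had 37.2, 79.1 and 210.4 in kidney, against 8.45, 40.3 and 56.4 in liver, a wide spread in kidney that overlapped liver, with a difference of 0.75 ± 0.22 (adjusted p = 0.0159). Tcp11 had 139, 164 and 272 in kidney, against 79.2, 98.8 and 127 in liver, with a difference of 0.68 ± 0.14 (adjusted p = 0.00153). Tssk2 had 12.2, 34.6 and 50 in kidney, against 5.45, 12.4 and 22.3 in liver, with overlap and a difference of 0.37 ± 0.09 (adjusted p = 0.00549). Lower in kidney were Ropn1l, by -0.78 ± 0.09 (adjusted p = 2.79e-05), Catsper2, by -0.61 ± 0.18 (adjusted p = 0.0177), and Cabyr, by -0.38 ± 0.12 (adjusted p = 0.024). Neither further Cabyr probe set was called lower. When the replicate number, which pairs samples here, was taken as a block, 5 genes were lower in kidney instead of 3.

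No member was called between male and female liver, kidney or hypothalamus by limma. All probe sets called made up 0.0177% in liver, 0.102% in kidney and 0.0265% in hypothalamus. At an unadjusted p below 0.05 there were 0, 1 and 1 member genes. In kidney this was Tssk2, with 46.9, 41.9 and 50 in male kidney, against 27.3, 12.2 and 19.5 in female kidney. The groups did not overlap, but the difference of 0.48 ± 0.13 (adjusted p = 0.744) did not pass over all probe sets. In hypothalamus it was Spam1, with 29.1, 32.5 and 60.4 in male hypothalamus, against 22.1, 28.2 and 10.1 in female hypothalamus, non-overlapping and near the floor of the array. Male samples also lay all above the female ones for 1 member and all below for 1 in liver, and all below for 2 in kidney. The unadjusted counts take no account of the number of tests and do not set the members apart. The share of all probe sets at that unadjusted p is not given here. In kidney, Smcp had 148, 59.2 and 210.4 in male kidney, against 50.8, 37.2 and 99 in female kidney, which overlapped (adjusted p = 1). Male minus female differences of the 29 genes ranged from -0.47 to 0.32 in liver, from -0.34 to 0.74 in kidney and from -0.23 to 0.39 in hypothalamus. Tests of whether the sex difference itself differed between tissues called 0 members in all 3 pairs of tissues, with 1, 0 and 1 at an unadjusted p below 0.05 for hypothalamus and kidney, hypothalamus and liver, and kidney and liver. Over all 22626 probe sets they called 27, 0 and 36.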

How the data were processed

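The authors deposited 1 linear intensity for each probe set on each array, with trimmed means that were already alike. The software that summarised probe sets is not given in the sources, and detection calls were not used. Each array was rescaled to the same 2% trimmed mean, 64 control probe sets were left out, and log2 of the scaled intensity plus 48.3 (the 20th percentile of all scaled values) was averaged over the 2 arrays of an RNA sample. Printed intensities are means of the 2 arrays. No filter on low values was used, since most members would pass it through testis alone. Groups, taken from the array titles, were compared by lmFit and eBayes of limma 3.58.1, under R 4.3.3, on the samples of the comparison, with Benjamini-Hochberg adjustment over 22626 probe sets and a threshold of 0.05. The fit was tested on simulated data. Tissues with both sexes were averaged over sex in a fit of 12 samples. Of the probe sets, 20380 had 1 gene symbol, 691 several and 1555 none, and those without a single symbol are not named. Plots used Python 3.11.15 with matplotlib 3.10.9.

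Members, lists, promoter motifs and tests were chosen with earlier results of these data known. Named first were the 10 members with the greatest difference between testis and ovary, those not called there, up to 8 called in each other tissue comparison by size, and up to 4 genes of a list with the lowest p. Promoters were printed for members chosen after their values were seen. Samples of the same number were taken to deviate together where all 3 correlations exceeded 0.1. This held between the sexes of liver (correlations of 0.469, 0.124 and 0.430), kidney (0.507, 0.327 and 0.563) and hypothalamus (0.307, 0.100 and 0.241). It also held between kidney and liver in both sexes, and between female hypothalamus and female kidney (0.205, 0.137 and 0.146). It did not hold between testis and ovary (0.050, 0.123 and 0.037) or in the other pairs of groups compared. Under another rule, each sample correlated best with its own number for testis with ovary and for ovary with female liver. That rule failed for the sexes of liver, so a weaker pairing elsewhere is not excluded. Alternatives were the pseudocount, a filter, median centring, quantile normalization, first or second arrays only, an intensity trend, all 8 groups in 1 fit, the replicate number as a block and leaving out each RNA sample.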

Additional observations from a re-analysis of the deposited data

How the results depend on the processing

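In the 4 testis comparisons 29 of 29 genes stayed higher under each alternative and without any 1 RNA sample (29 to 29). Leaving out 1 RNA sample gave 6 to 7 genes higher and 1 to 2 lower in ovary against female liver, 4 to 7 and 0 to 1 against female kidney, 13 to 15 and 1 to 2 in hypothalamus against liver, 10 to 12 and 4 to 4 against kidney, 6 to 6 and 2 to 4 in kidney against liver, and 0 between the sexes. Over all probe sets it gave 4 to 6 calls between the sexes of liver, 0 to 29 of kidney (0 without female kidney 2 or 3) and 2 to 8 of hypothalamus. A filter on low values leaves out most members outside testis and left 1 gene higher in ovary against female liver, 1 against female kidney, 3 in hypothalamus against liver, 3 against kidney (and 1 lower) and 2 in kidney against liver. With median centring 3 and 2 genes were lower in ovary against female liver and kidney, 7 higher and 6 lower in hypothalamus against liver, 7 higher against kidney, and 5 lower in kidney against liver. Quantile normalization gave 3 and 2, 7 and 6, 6 and 5 for the same. It also turned 2 further probe sets in hypothalamus against liver, Spata6 1418651_at to -0.00431 and Acrbp 1422874_at to -0.0598. An intensity trend gave 1 gene lower in ovary against female kidney, and 0.25 times the pseudocount or second arrays only gave 2 lower in hypothalamus against liver. The replicate block gave 5 lower in kidney against liver, and over all probe sets 7 calls between the sexes of liver (4 without it), 36 of kidney (23) and 2 of hypothalamus (6). It changed no other count of members by over 1.5 times. In liver a filter gave 7 and all 8 groups in 1 fit 23 calls. In kidney, 4 times the pseudocount gave 3, second arrays only 6 and all 8 groups 119, and in hypothalamus 0.25 times the pseudocount gave 2. Above the 50th in place of the 40th percentile lay 1 gene in male and 1 in female hypothalamus, 2 in female liver and 0 in male kidney, female kidney and ovary. Above the 30th lay 6, 4, 8 (male liver), 9, 8 and 8. Other causes were not tested. Dim probe sets near the pseudocount limit what can be seen outside testis.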

Other observations

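A probe set annotated to both Acrbp and Ing4, left out of the results because it names 2 genes, ran against the pattern of Acrbp. It had 261, 266 and 292 in testis, against 719, 689 and 791 in ovary, and means of 387 to 454 in the 6 other groups. All 3 testis values lay below all values of the other groups, and no test was made.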
